A study of Homo sapiens with 15 samples.

Results

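The 77 genes described here encode the proteins of the human cytosolic ribosome, 46 of the large subunit and 31 of the small subunit. They were chosen by symbol alone: every protein-coding row named RPL or RPS with a number and at most 1 letter A or X, plus RPSA, RPLP0, RPLP1 and RPLP2. Paralogues with an L or Y after the number and the kinases of the RPS6K family were left out. The table of counts held 28395 gene rows, of which 16740 passed the filter on low counts, and all 77 ribosomal protein genes were among those tested.

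Counts came from BEAS-2B, an immortalised line of human bronchial epithelial cells grown in medium with serum. Exposed cultures received nanoplastics of polyethylene terephthalate (PET-NPLs) at 50 µg/mL, and control cultures of the same line received none. RNA was sequenced from 2 control and 2 exposed libraries at 24 h, 2 and 2 at 15 weeks, and 3 and 4 at 30 weeks, and the labels place the first 2 time points in batch 1 and the last in batch 2. Libraries were made from total RNA depleted of ribosomal RNA, and their totals ran from 23143202 to 31459990 counts. All cultures derive from 1 cell line, and the labels do not say whether replicates came from separate cultures, so p-values measure only the spread between these libraries, which may be technical.

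Each ribosome carries a single copy of nearly every one of these proteins, so cells make them in matched amounts. The large subunit joins amino acids and guides the new chain out through its exit tunnel, and the small subunit holds and reads the messenger RNA. Most of the messengers begin with a terminal oligopyrimidine (TOP) tract, a C followed by a run of C and T at the first transcribed base, through which mTORC1 signalling and the binding protein LARP1 set how much of them is translated. Their coding sequences are short, and many of the genes have processed copies elsewhere in the genome.

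The 3 control libraries at 30 weeks stood apart from the other 12 before any ribosomal protein gene was considered. The 7 skeletal muscle markers examined summed to between 318 and 408 CPM (read counts scaled to a common library size by TMM) in these controls and to between 17.1 and 43.7 CPM in the other libraries. MYOD1, the master regulator of muscle fate, lay between 65.8 and 106 CPM in the 30-week controls and between 0.152 and 5.72 CPM elsewhere. The 8 airway epithelial markers summed to 313 to 409 CPM in the 30-week controls against 820 to 1096 CPM in the other libraries, and EPCAM and CDH1, which define epithelium, stayed at or below 0.935 CPM in every library. The sum was weighted to abundant keratins: KRT8 lay at 127 to 187 against 450 to 710 CPM, and KRT18 at 179 to 220 against 287 to 383 CPM. From 15 to 30 weeks in controls, 4 of the 6 markers tested were called lower and 1 higher, beside 24.6% and 25.6% of all genes tested. A group of 6 abundant small noncoding RNAs took 22.3% to 31.03% of the counts in the 30-week controls, 17.0% to 21.5% in exposed libraries at 30 weeks and 9.75% to 12.9% before. Their part in the results at 30 weeks was not tested, and comparisons with the 30-week controls cannot be made without these libraries.

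In the 24 h controls, RPL41 and RPL37A had the highest levels per kilobase of coding sequence. RPL41, the shortest protein of the ribosome with a coding sequence of 75 bases, stood at 4950.6 CPM per kilobase, and RPL37A, a small zinc-binding protein of the large subunit, at 3030 CPM per kilobase. The median member stood at 731 CPM per kilobase. At the other end, RPS28 stood at 11.009 and RPS10 at 8.34 CPM per kilobase. Because RPL41 codes for so short a chain, its value divides reads over the whole messenger by a small length.

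Low levels lay mostly at members with near-identical copies. A search of each coding sequence against the hg38 genome found at least 1 copy outside the gene, at 97% identity or more over at least 90% of the sequence, for 47 of the 77 members and at least 3 for 16. RPL21 had 18 copies, RPS26 13, RPL41 9, RPS27 8 and RPSA 7. The 47 members with a copy had a median of 503 CPM per kilobase, and the 30 without had a median of 1176 CPM per kilobase. The rows of 3 members overlap that of a read-through transcript, RPL17, RPS10 and RPL36A, and stood at 51.9, 8.34 and 27.2 CPM per kilobase. How reads that map to several places or to 2 overlapping genes were handled is not given in the sources used here, so the levels of these members are uncertain, while a comparison of 1 member between libraries meets the same rule in each.

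Start sites were read from the RefSeq promoter table for GRCh38.p14, which held 62 of the 77 members. A C followed by at least 4 bases of C or T, read on the gene's own strand from the annotated start, was found at 46 of the 62 (74.2%), against 5.14% of all genes in that table and 6.24% of its protein-coding genes. The windows of members downregulated at 30 weeks are shown so that their starts can be compared, with RPL14 and RPS6 for comparison. Each runs from 10 bases before the annotated start, with the TOP run in capitals.
RPL34 (chr4:108620566-108620595, plus strand): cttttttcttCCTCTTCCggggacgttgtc
RPL36 (chr19:5690285-5690314, plus strand): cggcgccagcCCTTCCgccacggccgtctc
RPL37A (chr2:216498834-216498863, plus strand): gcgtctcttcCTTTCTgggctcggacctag
RPL13 (chr16:89560672-89560701, plus strand): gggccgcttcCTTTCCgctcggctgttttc
RPLP0 (chr12:120201092-120201121, minus strand): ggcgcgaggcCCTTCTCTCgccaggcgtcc
RPLP2 (chr11:809957-809986, plus strand): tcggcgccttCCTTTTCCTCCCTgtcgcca
RPS9 (chr19:54200848-54200877, plus strand): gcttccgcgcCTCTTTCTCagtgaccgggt
RPL15 (chr3:23916535-23916564, plus strand): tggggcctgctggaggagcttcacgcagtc
RPS15 (chr19:1438386-1438415, plus strand): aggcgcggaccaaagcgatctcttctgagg
RPS26 (chr12:56041908-56041937, plus strand): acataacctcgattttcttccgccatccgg
RPS29 (chr14:49598691-49598720, minus strand): agcgcgcagctggcagcggtggttgtttct
RPL14 (chr3:40457329-40457358, plus strand): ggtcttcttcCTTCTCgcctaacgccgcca
RPS6 (chr9:19380217-19380246, minus strand): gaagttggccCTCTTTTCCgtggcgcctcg
The first 7 hold a TOP run at the annotated start, and RPL15, RPS15, RPS26 and RPS29 hold none there. RPL37 and RPS2, also downregulated, had no window in the table.

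Ribosomal protein genes took between 2.85% and 4.72% of the counts of a library. At 24 h the shares were 3.02% and 3.21% in controls and 3.12% and 3.47% in exposed libraries. At 15 weeks they were 3.19% and 3.09% in controls and 3.03% and 2.97% in exposed libraries, so that both exposed libraries lay below both controls. At 30 weeks the controls gave 4.72%, 4.51% and 3.31%, and exposed libraries gave 2.85%, 4.70%, 3.62% and 2.96%. Control replicates 1 and 2 and exposed replicate 2 were high, control replicate 3 and the other exposed libraries were lower, and the groups overlapped. With the 6 small noncoding RNAs left out of the total, the 30-week shares were 6.84%, 5.81% and 4.52% in controls and 3.43%, 5.73%, 4.61% and 3.65% in exposed libraries, so that the difference of the means went from -0.65 to -1.37 percentage points, still with overlap. The 95% Wilson interval of each share had a half-width of 0.00749 percentage points or less, which covers counting error only.

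**Figure D1:**
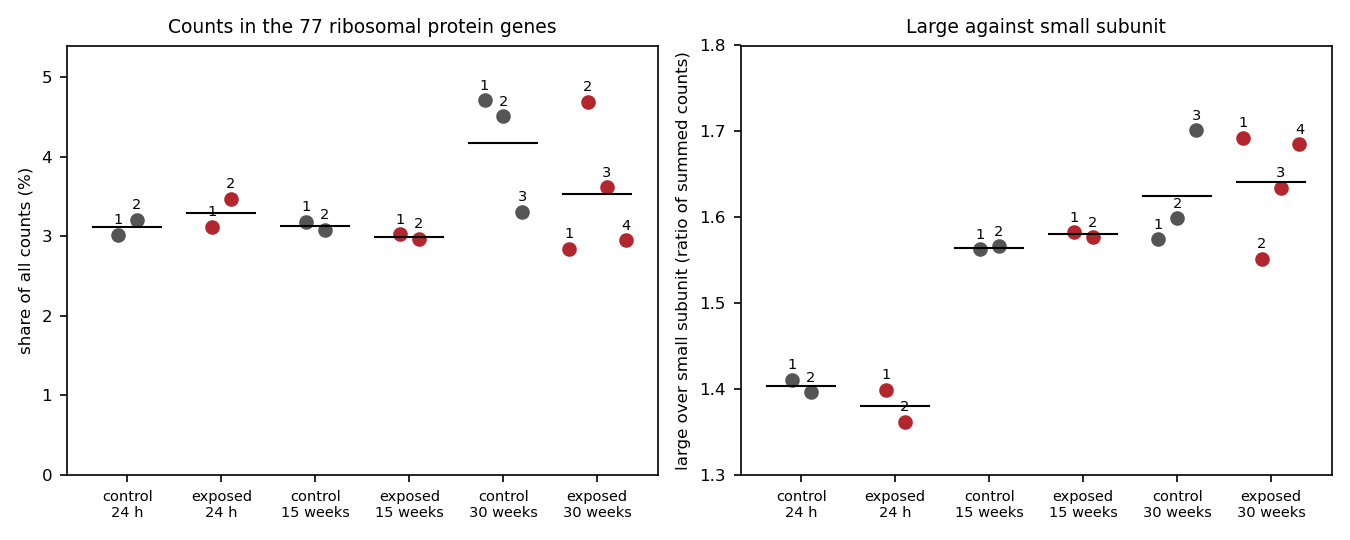
Left, share of all counts (%) in the 77 members, and right, summed counts of the large subunit divided by those of the small subunit, in each library; numbers name the replicate, grey is control, red is exposed and bars are group means. At 30 weeks the shares run from 3.31% to 4.72% in controls and from 2.85% to 4.70% in exposed libraries, and the ratio is at most 1.41 at 24 h and at least 1.55 later.

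The large subunit, with 46 members against 31, took more counts than the small one in all libraries. The ratio of their summed counts was not corrected for the number of members, so a value above 1 does not show higher counts per gene. At 24 h the ratio was 1.41 and 1.40 in controls and 1.40 and 1.36 in exposed libraries. At 15 weeks it was 1.56 and 1.57 in controls and 1.58 and 1.58 in exposed libraries, above all 4 libraries of 24 h in the same batch. At 30 weeks it was 1.57, 1.60 and 1.70 in controls and 1.69, 1.55, 1.63 and 1.69 in exposed libraries, with overlap. Within each group at 30 weeks, the library richest in ribosomal protein counts had the lowest ratio. The ratio of summed counts is weighted to the most abundant members and was given no test. The median log2 CPM of the large subunit minus that of the small one gave another order: 0.351 and 0.299 in 24 h controls, 0.261 and 0.460 in 15-week controls, with overlap, and 0.296, 0.487 and 0.236 in 30-week controls. In exposed libraries at 30 weeks it was 0.193, 0.183, 0.141 and 0.173, below all 3 controls, where the ratio of summed counts overlapped.

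No ribosomal protein gene was called at 24 h, where the edgeR quasi-likelihood test called 0% of all genes tested. DESeq2 and limma-voom called none either. None of the 77 had an unadjusted p under 0.05, against 277 of all 16740 genes tested. The median log2 fold change of the 77, exposed over control, was 0.10 against 0.00 over all genes. At 15 weeks none was called either, again with 0% of all genes in the edgeR fit. Over all genes, DESeq2 called 16 of 16740 there, and limma-voom with 2 surrogate variables called 10. With the libraries of 15 weeks fitted alone, 304 of 15484 genes were called. In the edgeR fit of all libraries an unadjusted p under 0.05 was reached by 1 member, RPS28 of the messenger path, and by 823 of all genes tested. RPS28 stood at 1.39 and 1.504 CPM in controls and at 1.99 and 2.92 CPM in exposed libraries (log2 fold change 0.76 ± 0.30 (SE), edgeR adjusted p = 0.948), a low level on which few counts bear. The median at 15 weeks was -0.08, and in 38 of the 77 members both exposed libraries lay below both controls, as they did for 22% of all genes tested.

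At 30 weeks, 14 members were downregulated in exposed libraries and none was upregulated (edgeR, adjusted p under 0.05 over 16740 genes). This is 18.2% of the 77, beside 11.7% of all genes tested called lower and 23.7% called in either direction. Among other tested coding genes the share called lower varied with coding length. It was 26.1% under 400 bases, 15.9% at 400 to under 600 bases and 11.95% at 600 to 1300 bases. Members gave 28% of 25 under 400 bases, 6.67% of 30 at 400 to under 600 bases and 22.7% of 22 at 600 bases or more. Whether members differ from other genes of their length was not tested. Of the 14, 8 belong to the large subunit and 6 to the small one, 17.4% and 19.4% of their members. Below 0 lay 75 of the 77 log2 fold changes, with a median of -0.45 against 0.01 over all genes, and the medians of the subunits were -0.44 (large) and -0.48 (small). An unadjusted p under 0.05 was reached by 34 members and by 5989 of the 16740 genes tested. In bulk RNA, fewer cells of a type and less RNA per cell cannot be told apart.

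**Figure D2:**
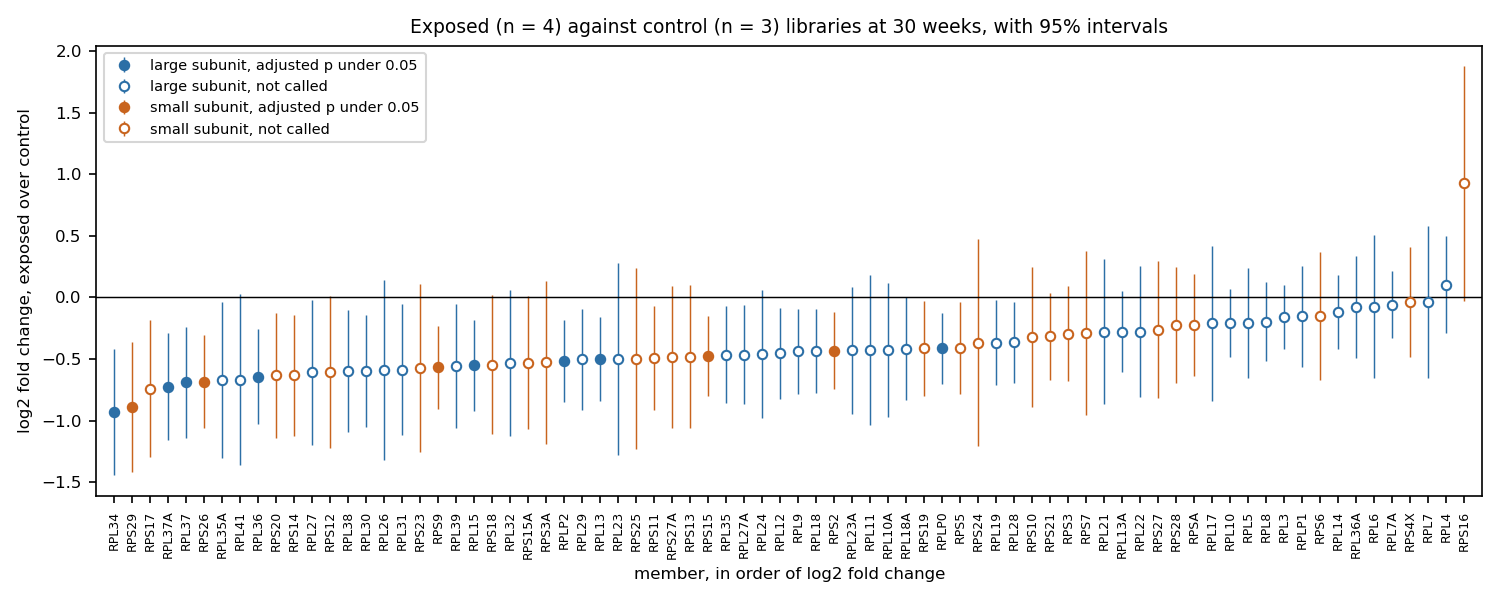
Log2 fold change of 76 of the 77 members, exposed (n = 4) over control (n = 3) libraries at 30 weeks, with 95% intervals of the edgeR fit; blue is the large subunit, orange the small one, and filled points have an adjusted p under 0.05. All points but RPL4 and RPS16 lie below 0, and the 13 filled points run from -0.93 (RPL34) to -0.41 (RPLP0).

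RPL34 and RPS29 had the lowest fold changes among the 14. RPL34 (Entrez gene 6164), a large-subunit protein with a coding sequence of 351 bases, had 533, 449 and 277 CPM in the 3 controls and 168, 347, 208 and 157 CPM in the 4 exposed libraries. Exposed replicate 2 lay above control replicate 3, so the groups overlapped, and the fitted difference was -0.93 ± 0.24 (log2, SE; edgeR adjusted p = 0.0106), or 1.91-fold lower. RPS29 (6235), a zinc-binding protein of the small subunit head, had 365, 233 and 192 CPM in controls and 84.4, 216, 119 and 149 CPM in exposed libraries, with -0.89 ± 0.25 (adjusted p = 0.0171). Again only exposed replicate 2 reached into the control range.

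RPL37A, RPL37 and RPL36 are further large-subunit members among the 14 with coding sequences under 400 bases. RPL37A (6168) had 2664, 1989 and 1432 CPM in controls and 882, 1655, 1285 and 1088 CPM in exposed libraries (-0.72 ± 0.20, adjusted p = 0.0169). RPL37 (6167), another zinc-binding protein, had 2067, 1407 and 1171 CPM against 674, 1325, 1069 and 776 CPM (-0.69 ± 0.21, adjusted p = 0.0281). RPL36 (25873) had 1199, 849 and 692 CPM against 450, 732, 638 and 520 CPM (-0.64 ± 0.18, adjusted p = 0.0180). In all 3 genes exposed replicate 2 exceeded control replicate 3, and exposed replicates 1 and 4 were the lowest of the 7 libraries.

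RPL15 and RPL13 are longer members of the large subunit. RPL15 (6138) had 1016, 863 and 639 CPM in controls and 448, 724, 611 and 508 CPM in exposed libraries (-0.55 ± 0.17, adjusted p = 0.0304). RPL13 (6137) had 1512, 1158 and 862 CPM against 738, 950, 885 and 754 CPM (-0.50 ± 0.16). For RPL13 exposed replicates 2 and 3 both lay above control replicate 3, so these groups overlapped more than those of RPL15.

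The stalk of the large subunit recruits the elongation factors, and of its 4 proteins RPLP0 and RPLP2 were downregulated. RPLP0 (6175), the scaffold of the stalk, had 982, 805 and 788 CPM in controls and 568, 795, 631 and 581 CPM in exposed libraries (-0.41 ± 0.13, adjusted p = 0.0355). RPLP2 (6181) had 890, 638 and 545 CPM against 406, 568, 529 and 428 CPM (-0.52 ± 0.16, adjusted p = 0.0268). RPLP1, which pairs with RPLP2, was not called (-0.15 ± 0.19, adjusted p = 0.617): its controls stood at 409, 268 and 434 CPM and its exposed libraries at 348, 301, 430 and 253 CPM, with wide overlap. RPL12, at the stalk base, stood at -0.45 ± 0.17 on the log2 scale (adjusted p = 0.0704).

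In the small subunit 6 members were downregulated. RPS15 (6209), near the decoding site, had 532, 380 and 314 CPM in controls and 267, 311, 312 and 286 CPM in exposed libraries (-0.48 ± 0.15, adjusted p = 0.0324). RPS9 (6203), an early-binding assembly protein, had 1060, 762 and 639 CPM against 475, 601, 617 and 520 CPM (-0.57 ± 0.16, adjusted p = 0.0166). In these 2 genes alone of the 77, every exposed library lay below every control; 13% of all genes tested had groups ordered that way.

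RPS26 and RPS2 were also among the small-subunit members called. RPS26 (6231), which touches the messenger just upstream of the start codon and is mutated in some patients with Diamond-Blackfan anaemia, had 67.9, 44.7 and 36.4 CPM in controls and 28.7, 38.2, 31.8 and 24.9 CPM in exposed libraries (-0.68 ± 0.18, adjusted p = 0.0110); it has 13 near-identical copies. RPS2 (6187), at the entry of the messenger channel, had 1128, 745 and 723 CPM against 603, 640, 727 and 597 CPM (-0.43 ± 0.15, adjusted p = 0.0438). Both genes overlapped between the groups through a single exposed library, replicate 2 for RPS26 and replicate 3 for RPS2.

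Several members of known role did not pass the test. RPL5 and RPL11, which form a particle with the 5S RNA that can bind the p53 regulator MDM2, had -0.21 ± 0.21 and -0.43 ± 0.29 (adjusted p = 0.528 and 0.308). RPS6, the small-subunit protein phosphorylated by S6 kinases, had 960, 835 and 640 CPM in controls and 520, 1238, 585 and 584 CPM in exposed libraries (-0.15 ± 0.24, adjusted p = 0.707). Exposed replicate 2 was the highest of all 7 libraries for RPS6, and the other 3 exposed libraries were the lowest. RPS19, the gene most often mutated in Diamond-Blackfan anaemia, had -0.41 ± 0.18 (adjusted p = 0.115). RPS27A, made as a fusion to ubiquitin, had -0.49 ± 0.27 (adjusted p = 0.215), and RPSA, the laminin receptor precursor on the small subunit, had -0.22 ± 0.20 (adjusted p = 0.451). RPL39 in the exit tunnel and RPL41, the shortest members, had -0.56 ± 0.24 and -0.67 ± 0.33 (adjusted p = 0.102 and 0.155).

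RPS16 and RPL4 were the members above 0 and are named because their values were seen. RPS16, near the decoding site, had 98.4, 65.8 and 190 CPM in controls and 221, 131, 444 and 102 CPM in exposed libraries (0.93 ± 0.45, adjusted p = 0.151). Its order of libraries was unlike that of most members: its highest control was replicate 3, where 68 of the 77 members had their lowest control value. Before 30 weeks RPS16 lay between 20.2 and 66.4 CPM, and it had no near-identical copy. RPL4, the longest member with an arm in the exit tunnel, had 617, 571 and 468 CPM in controls and 525, 874, 499 and 475 CPM in exposed libraries (log2 fold change 0.10 ± 0.19, adjusted p = 0.733).

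How many members were called at 30 weeks rested on single libraries. Without control replicate 1 none of the 77 was called (median -0.22), and without exposed replicate 2 the count was 63, with 1 of them higher (median -0.65). It was 40 without control replicate 3, again with 1 higher, and 4 and 5 without exposed replicates 1 and 4. With the 7 libraries of 30 weeks fitted alone, none was called, and with 2 surrogate variables in limma-voom 55 were. The median stayed below 0 in each of these fits. Calls over all genes tested moved too: 2491 of 16681 without control replicate 1, 5704 of 16694 without exposed replicate 2 and 3773 of 16692 without control replicate 3. Without exposed replicates 1 and 4 they were 3038 of 16727 and 3284 of 16713. They were 2370 of 15519 with the 30-week libraries alone and 5665 of 16740 with 2 surrogate variables.

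The libraries of a group at 30 weeks differed from each other in most members at once. Of the 77, 73 were highest in control replicate 1 among controls, 68 were lowest in control replicate 3 and 67 were highest in exposed replicate 2 among exposed libraries; the corresponding shares of all genes tested were 34.2%, 34.1% and 36.8%. The median coefficient of variation of a member was 28.8% in controls and 30.7% in exposed libraries at 30 weeks, against 16.9% and 19.3% over all genes. At 24 h and 15 weeks it lay between 4.05% and 8.63%, below the median of all genes in each group. RPS24, the member with the largest coefficient of variation among exposed libraries at 30 weeks (75.1%), had 279, 1163, 507 and 278 CPM there and is named because its values were seen.

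In exposed replicate 2, deviation from the group mean varied with base composition, with wide overlap between classes. Coding GC content ran from 42.48% to 62.99% over the members. The 33 members under 50% GC lay a median of 0.80 (log2 CPM) above the group mean in exposed replicate 2, and the 18 members of 55% GC or more a median of 0.20. In exposed replicates 1 and 4 the corresponding medians were -0.45 and -0.40 under 50% GC, and -0.19 and -0.14 at 55% or more. Spearman's correlation between deviation and GC over the 77 members was -0.78 in exposed replicate 2, and over 13815 tested coding genes of the same library it was -0.47. Among controls the correlation over members was -0.12, -0.58 and 0.47 in replicates 1, 2 and 3. Deviations within a group sum to 0, and genes of a library share its depth and preparation, so these are descriptions. In exposed replicate 2, RPL7 and RPL5 (43.41% and 44.33% GC) stood at 60.7 and 592 CPM against 21.4 to 24.8 and 285 to 305 CPM in the other exposed libraries, while RPS2 and RPS15 (61.77% and 62.99% GC) lay within the range of the others.

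From 24 h to 15 weeks, within batch 1, few of these genes were called in control cultures. There, 3 members were downregulated and none was upregulated (3.9% of the 77, beside 24.9% of all genes tested in either direction and 12.2% lower), with a median of -0.22. RPL10, at the site where transfer RNAs are joined to the large subunit, had 212 and 220 CPM at 24 h and 108 and 113 CPM at 15 weeks (-0.97 ± 0.17, edgeR adjusted p = 0.00069). RPL9, of the large subunit surface, had 37.3 and 42.2 CPM against 24.5 and 23.3 CPM (-0.73 ± 0.22, adjusted p = 0.0203), and RPL28 had 90.2 and 93.7 CPM against 60.6 and 61.7 CPM (-0.59 ± 0.20, adjusted p = 0.0448). Exposed libraries at the same times stood alike: RPL10 had 224 and 230 CPM at 24 h and 106 and 112 CPM at 15 weeks.

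The largest fitted changes that missed the threshold between these times went in both directions. RPL17, in the exit tunnel, changed by a fitted -1.06 ± 0.39 on the log2 scale (adjusted p = 0.0573), and RPS29 of -0.86 ± 0.33 (adjusted p = 0.0708). RPL24, RPL35A and RPL12 had the largest positive values, 0.54 ± 0.33, 0.53 ± 0.40 and 0.42 ± 0.23, with adjusted p of 0.259, 0.373 and 0.207. Medians were -0.14 over the large subunit and -0.30 over the small subunit, where 26 of 31 members lay below 0, as did 51.3% of all genes tested.

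The step from 15 to 30 weeks crosses the batches, so that time and batch cannot be told apart. In controls 48 members were upregulated and 5 downregulated, 68.8% of the 77 beside 50.3% of all genes tested; 25.6% of all genes were called higher and 24.6% lower. The median was 0.91 against 0.01 over all genes. In the large subunit 31 rose and 5 fell, and in the small subunit 17 rose and none fell. RPL36, RPL37 and RPS29 had the largest rises: RPL36 went from 271 and 269.2 CPM to 1199, 849 and 692 CPM (1.76 ± 0.23, edgeR adjusted p = 2.1e-05), RPL37 changed by 1.74 ± 0.27 and RPS29 by 1.66 ± 0.32. All of the 30-week controls lay above both 15-week controls in these genes.

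The same step in exposed libraries, which does not use the 30-week controls and was added after these were seen to stand apart, gave a smaller median. There 26 members were upregulated and 7 downregulated (42.9% of the 77, beside 46% of all genes tested in either direction, 23.3% called higher and 22.7% lower), with a median of 0.43. Upregulated in both steps were 25 members, 52.1% of those in controls and 96.2% of those in exposed libraries, against 66.7% and 73.5% over all genes called higher. No member was called in opposite directions, as 146 of the 16740 genes tested were. RPL36 changed by 1.26 ± 0.22 (adjusted p = 0.00032) and RPL37 by 1.02 ± 0.25 (adjusted p = 0.0041), and RPLP1 by 1.57 ± 0.24. RPS16 alone was called higher in exposed libraries and not in controls. It had the largest rise, 2.62, from 34.6 and 38.6 CPM to 221, 131, 444 and 102 CPM. The difference between the exposure effects at 30 and 15 weeks was itself called for none of the 77 members, beside 4.74% of all genes tested (edgeR). Its median over the members was -0.38. An unadjusted p under 0.05 was reached by 2 members and by 2559 of the 16740 genes tested.

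In the large subunit 5 members fell in both steps. RPL14, a protein of the large subunit surface, had 187 and 183 CPM in 15-week controls and 90.7, 87.1 and 85.5 CPM in 30-week controls (-1.08 ± 0.17, adjusted p = 7.5e-05), and 185 and 171 CPM against 72.9, 109, 72.7 and 68.6 CPM in exposed libraries (-1.14 ± 0.15). RPL7 had 73.5 and 67.4 CPM in 15-week controls and 42.2, 34.3 and 23.3 CPM at 30 weeks (-1.08 ± 0.34, adjusted p = 0.0145). RPL36A had 7.99 and 6.22 CPM against 3.48, 4.44 and 3.65 CPM (-0.88 ± 0.22, adjusted p = 0.0036). RPL5 and RPL4 had -0.68 ± 0.25 and -0.77 ± 0.22 in controls and -0.82 ± 0.23 and -0.60 ± 0.21 in exposed libraries. In exposed libraries RPL11 and RPL6 fell as well, RPL11 by -0.95 ± 0.32 (adjusted p = 0.0215), with a value of -0.61 ± 0.34 (adjusted p = 0.148) in controls.

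The shorter members had fold changes farther from 0 at 30 weeks. The coding sequences of the family run from 75 to 1281 bases with a median of 456 bases, against a median of 1413 bases over tested coding genes. In the exposed-against-control comparison at 30 weeks the median log2 fold change was -0.59 for the 25 members under 400 bases, -0.46 for the 30 members of 400 to under 600 bases and -0.22 for the 22 members of 600 bases or more. Other tested coding genes were ordered alike, with -0.32 for 660 genes under 400 bases, -0.15 for 988 genes of 400 to under 600 bases, -0.01 for 4534 genes of 600 to 1300 bases and 0.10 for 7556 longer genes. Among genes whose longest transcript is under 1000 bases, the medians were -0.48 for 11 members and -0.44 for 408 others. Spearman's correlation of log2 fold change with coding length was 0.54 over the 77 members and 0.20 over 13815 coding genes.

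From 15 to 30 weeks the medians were ordered by length as well. In controls the median was 1.23, 0.87 and 0.53 in the 3 length classes of members, from short to long, and 0.84, 0.42 and 0.09 in the classes of other coding genes up to 1300 bases. In exposed libraries the members gave 0.66, 0.42 and 0.20 and the other genes 0.57, 0.35 and 0.10. The first of these comparisons shares the 30-week controls with the exposure comparison at 30 weeks, so the opposite slopes of those 2 are not independent. The share of small noncoding RNAs also differed between the groups at 30 weeks, and its part in the fold changes of the members was not tested.

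Medians were also taken by the TOP run. At 30 weeks the exposure comparison gave -0.46 for the 46 members with a TOP run at the annotated start and -0.40 for the 16 with a window but no such run, with 7 and 4 called lower. For controls from 15 to 30 weeks the medians were 0.92 and 0.64. These groups were not tested against each other. The split rests on the exact annotated base, and some windows without a run there, such as that of RPS26, hold a run of C and T further on.

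Genes of the same pathway outside the rule were counted from lists. FAU, whose ribosomal protein is made as a fusion, had -0.55 ± 0.17 (adjusted p = 0.0247) in the exposure comparison at 30 weeks. Of 27 other TOP messages, 4 fell and none rose (median -0.18): FAU, the elongation factor subunit EEF1D and the small nucleolar RNA hosts SNHG6 and SNHG8. Of 77 mitochondrial ribosomal proteins, which serve a separate ribosome, 11 fell and none rose (median -0.18). The share called lower over all genes tested was 11.7%, near that of both lists. Of 6 paralogues left out by the rule and tested, none was called (median -0.36).

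Factors that build the ribosome were counted in the same way. Of 49 ribosome biogenesis genes, 7 rose and 2 fell in the exposure comparison at 30 weeks (median 0.19), beside 12% of all genes tested called higher and 11.7% lower, RRP1B by 0.73 ± 0.11 among those that rose. From 15 to 30 weeks in controls, a step that crosses the batches, 10 of the 49 rose and 26 fell (median -0.52). Of the 77 ribosomal protein genes 48 rose and 5 fell there, beside 25.6% of all genes tested called higher and 24.6% lower. Of 14 RNA polymerase I genes, 1 rose with exposure, POLR1B. Of 27 initiation factors 1 rose and 2 fell, of 8 elongation factors 1 rose and 2 fell, and of 18 genes of mTORC1 and TOP regulation 1 rose, the translational repressor EIF4EBP2 (0.61 ± 0.19, adjusted p = 0.0269). LARP1 had 0.21 ± 0.23 (adjusted p = 0.546). Of 15 proliferation genes 3 rose, MKI67, MCM6 and RRM2 (median 0.22).

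Levels of 3 related genes by library at 30 weeks, named because their values were seen, follow. RPS27L, a paralogue induced by p53, had 309, 243 and 117 CPM in controls and 70.5, 261, 117 and 74.1 CPM in exposed libraries. NPM1, an abundant nucleolar TOP message, had 432, 442 and 357 CPM against 289, 914, 336 and 321 CPM. In both, exposed replicate 2 was the highest exposed library and control replicate 3 the lowest control. LARP1, lowest in exposed replicate 2 among exposed libraries and highest in control replicate 3 among controls, had 164, 122 and 204 CPM in controls and 250, 109, 184 and 214 CPM in exposed libraries.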

How the data were processed

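Gene counts of 15 libraries were analysed. The authors trimmed reads with Rfastp, discarded those under 20 bases, mapped them to the human genome (hg38) and counted them per Entrez gene with Rsubread, and the deposited values are raw counts. The strand and multi-mapping settings of the counting are not given in the sources used here. Counts were filtered with filterByExpr, scaled by TMM and fitted with edgeR 4.0.16 in R 4.3.3 (quasi-likelihood test, 1 mean per condition, all libraries in 1 fit), with Benjamini-Hochberg adjustment over 16740 genes and a threshold of 0.05. SE is the fitted log2 fold change divided by the square root of F. Log2 CPM used a prior count of 2. Depth ran from 23143202 to 31459990 counts. The script was tested on simulated data.

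Alternatives were DESeq2 1.42.0, limma 3.58.1 (voom) without and with 2 surrogate variables (sva 3.50.0), other scalings, no filter, a replicate block, each time point alone and leaving out each library. The members and lists were chosen with earlier results of these data known. Named genes were those called between exposed and control libraries, members of set roles, the 2 highest and 2 lowest per kilobase and the 3 largest changes each way in the control time comparisons; RPL4, RPL6, RPL9, RPL28, RPS16, RPS24 and the genes named from lists were chosen after their values were seen. The comparison of exposed libraries at 30 and 15 weeks was added after seeing the data. Values of 1 called member and of 1 gene of the lists are not reported here; counts and medians include them.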

Additional observations from a re-analysis of the deposited data

Results flagged for a closer look

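In the 4 exposed libraries at 30 weeks, 6 of the named members had 1 library far from the others, judged by the gap to its nearest neighbour divided by the range of the group, against Dixon's 95% critical value. The quotient was 0.934 for RPL5, 0.913 for RPL7, 0.91 for RPS6, 0.894 for RPL14 and 0.833 for RPL10, and in each of these exposed replicate 2 was the high library. For RPS10 it was 0.839, with exposed replicate 1 the low library at 3.15 CPM. Chance puts about 1 in 20 groups past this value; 9 of the 77 members (11.7%) and 10.8% of all genes tested were past it.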

How the results depend on the processing

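The 14 members called lower in exposed libraries at 30 weeks became 24 with upper-quartile scaling, 5 with total counts as library size and 24 without the filter (1 higher). They became 55 with 2 surrogate variables, 0 at an adjusted p under 0.01 and 0 with the time point fitted alone. Leaving out 1 library gave 0 to 63. Over all 16740 genes tested the reported fit called 3961 in either direction. Upper-quartile scaling called 4008, total counts 4726, 2 surrogate variables 5665 and the threshold of 0.01 called 2166. No filter called 3870 of 23264 genes, the time point alone 2370 of 15519, and leaving out 1 library gave 2491 to 5704. With 2 surrogate variables, 20 members were called for the change of the exposure effect (0 in the reported fit; 0 to 7 with 1 library left out, 7 without exposed replicate 2 of 30 weeks). The 3 members called from 24 h to 15 weeks became 1 at an adjusted p under 0.01, 6 with DESeq2, 36 with 2 surrogate variables and 5 without the filter (1 to 9 with 1 library left out, 9 without exposed replicate 2 of 30 weeks and 1 without any one of the 4 control libraries compared). The 33 called between exposed libraries of 15 and 30 weeks became 51 with 2 surrogate variables and 19 to 39 with 1 library left out, 19 without either exposed library of 15 weeks. The 53 called between controls of these times ran from 37 to 66 with 1 library left out, and none was called at 24 h or 15 weeks with 1 library left out. Over all 16740 genes tested, 2 surrogate variables called 1973 for the change of the exposure effect and 6473 from 24 h to 15 weeks in controls. They called 9577 between exposed libraries of 15 and 30 weeks. From 24 h to 15 weeks DESeq2 called 4552, and no filter called 3991 of 23264 genes. The cause of these changes was not tested. Replicate numbers did not pair the libraries. Correlations of same-numbered deviations were -0.06 at 24 h, 0.029 at 15 weeks and -0.118, 0.303 and 0.098 at 30 weeks. With the number as a replicate block, 3 members were called at 30 weeks, 2 lower and 1 higher, beside 3334 of all 16740 genes tested. Without the 6 small noncoding RNAs in the total, the difference in share at 15 weeks was -0.208 percentage points (-0.138 with them) and at 30 weeks -1.37 (-0.65 with them). For the subunit ratio from median log2 CPM, the group means of the log2 differences were turned back into ratios. These ratios differed by -0.0646 at 15 weeks and -0.139 at 30 weeks (0.0154 and 0.0160 from summed counts). With total counts as library size the median of all genes was 0.22 in the exposure comparison at 30 weeks, against 0.01 in the reported fit. It was -0.37 between the controls of 15 and 30 weeks, against 0.01. In the former, signs turned for RPL10 (0.02), RPL14 (0.09), RPL36A (0.12), RPL5 (0.00), RPL7 (0.18), RPLP1 (0.07), RPS28 (0.01), RPS6 (0.06) and RPSA (0.00) under that scaling, for RPL36A under the block (0.04) and with 1 library left out for RPL36A (range -0.24 to 0.06), RPL7 (-0.53 to 0.18), RPS10 (-0.57 to 0.17), RPS28 (up to 0.05) and RPSA (-0.43 to 0.01). Between the controls of 15 and 30 weeks RPSA turned under that scaling (-0.33), with 2 surrogate variables (-0.01) and without control replicate 1 (-0.16, range to 0.28), and from 24 h to 15 weeks RPL7 turned with 2 surrogate variables (-0.20) and without control replicate 1 of 15 weeks (-0.04). Members near 1 to 5 CPM, such as RPS10, RPS28 and RPL36A, rest on few counts.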
